A study of Homo sapiens with 4 samples.

Results

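The aldo-keto reductase 1 (AKR1) family was followed here in OVSAYO cells, an established human ovarian clear cell carcinoma line. The members are AKR1A1, AKR1B1, AKR1B10, AKR1C1, AKR1C2, AKR1C3, AKR1C4 and AKR1D1. They were chosen by gene family with earlier results of the same 4 arrays known, in which AKR1B10 had one of the lowest ratios after silencing of Sp1, so the values below are a description and carry no test. Members were found through the RefSeq accession of each spot. This gave 12 of the 41000 probes and 7 of the 17721 genes with a symbol. No spot carried an accession of AKR1C2, which was not analysed here. The study asked which transcripts respond to CoCl2, a chemical mimic of hypoxia, and which of these responses need the transcription factor Sp1. Cells were transfected with nonspecific siRNA (NS-si) or with siRNA against Sp1 (Sp1-si) and cultured for 40 h, and then left untreated or exposed to 0.5 mM CoCl2 for 4 h, times as given in the sample labels (a figure legend of the study gives a shorter culture). All 4 conditions therefore share transfection with an siRNA, and each is 1 array of 1 culture of 1 line. The labels name a commercial siRNA pool, the study's supplement a different supplier for the Sp1 siRNA, and no second siRNA was arrayed, so effects of silencing Sp1 and of this siRNA reagent cannot be told apart.

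The family consists of NADPH-dependent enzymes, most of which reduce aldehydes and ketones to alcohols. AKR1A1 (aldehyde reductase) and AKR1B1 (aldose reductase, which converts glucose to sorbitol) act on sugars and small aldehydes, and AKR1B10 reduces retinal and lipid-derived aldehydes. The AKR1C enzymes are hydroxysteroid dehydrogenases that activate or inactivate progestins, androgens and prostaglandins, while AKR1D1 reduces a carbon-carbon double bond of steroids in bile acid synthesis in liver. AKR1B10 and several AKR1C genes are known targets of NRF2, the transcription factor of the response to oxidants and electrophiles, and are often high in tumours in which NRF2 is active.

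The silencing was visible on the arrays. SP1 gave signals of 553 in NS-si, 39.3 in Sp1-si, 430 in CoCl2-treated NS-si and 38.8 in CoCl2-treated Sp1-si cells at its 10-spot probe, with log2 ratios of Sp1-si to NS-si of -3.77 without and -3.87 with CoCl2. Its other probe gave -3.96 and -4.29. The 75th percentile of the signals, which scales each array here, lay between 977 and 1285. All 6 epithelial and all 5 clear cell carcinoma markers looked at were well above background on the 4 arrays. PTPRC of leukocytes, PECAM1 and CDH5 of endothelium and COL3A1 of fibroblasts were on none, whereas other markers of these lists (among them CD3E, CD14, VWF, COL1A2 and DCN) were detected. The log2 ratio of Sp1-si to NS-si without CoCl2 was -2.33 for NAPSA, 2.38 for GPX3, -1.55 for CDH1 and -3.10 for COL1A2, and the part of such marker differences in the AKR1 values was not tested. The COL1A2 ratio rests on a signal of 8.83 in Sp1-si cells, near the lowest signal well above background on that array, 6.72.

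Of the 12 AKR1 probes, 9 were well above background on all 4 arrays, and they represent the 5 members AKR1A1, AKR1B1, AKR1B10, AKR1C1 and AKR1C3. The other 3 probes, for AKR1C4 and AKR1D1, reached that level on none of the arrays. Signals below are the deposited ones, on a linear scale and not scaled between arrays, and ratios are differences of log2 signals after subtraction of each array's 75th percentile. Every AKR1 probe had a single spot on an array, so the error given with a ratio is the spread (SD) between spots of 10-spot probes of like signal. Like signal means a like mean log2 signal over the arrays compared. For a probe much dimmer on one array, as AKR1B10 was, this SD can be too small. The 10-spot SP1 probe had an SD of its own of 0.11 for Sp1-si to NS-si without CoCl2. The SD given covers technical error within an array only, not the difference between cultures. In RNA from a whole culture, fewer cells expressing a gene and less transcript per cell cannot be told apart.

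Promoter sequences are shown for 4 measured members whose transcripts moved in different directions when Sp1 was silenced, since Sp1 is a factor that binds GC-rich promoter elements. The RefSeq promoter table (build GRCh38.p14) held 9 windows for 7 members, each of 300 bases from 250 before to 50 after a transcription start. The 250 bases before the start are printed 5′ to 3′ on the strand of the gene. These are chr1:45550576-45550825 on the plus strand for AKR1A1, chr7:134459101-134459350 on the minus strand for AKR1B1, chr10:4963165-4963414 on the plus strand for AKR1C1 and chr10:5094164-5094413 on the plus strand for AKR1C3. Capitals mark matches on either strand to the GC box GGGCGG or to the hypoxia response element core ACGTG.
AKR1A1: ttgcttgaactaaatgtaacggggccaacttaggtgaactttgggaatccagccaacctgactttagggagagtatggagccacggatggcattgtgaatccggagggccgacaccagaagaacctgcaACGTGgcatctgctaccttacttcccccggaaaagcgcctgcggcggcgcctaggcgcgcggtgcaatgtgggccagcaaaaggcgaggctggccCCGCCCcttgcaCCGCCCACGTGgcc
AKR1B1: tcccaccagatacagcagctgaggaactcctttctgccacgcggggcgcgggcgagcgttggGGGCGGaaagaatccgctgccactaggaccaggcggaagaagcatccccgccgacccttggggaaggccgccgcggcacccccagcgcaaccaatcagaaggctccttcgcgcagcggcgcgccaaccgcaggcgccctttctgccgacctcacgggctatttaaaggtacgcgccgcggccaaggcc
AKR1C1: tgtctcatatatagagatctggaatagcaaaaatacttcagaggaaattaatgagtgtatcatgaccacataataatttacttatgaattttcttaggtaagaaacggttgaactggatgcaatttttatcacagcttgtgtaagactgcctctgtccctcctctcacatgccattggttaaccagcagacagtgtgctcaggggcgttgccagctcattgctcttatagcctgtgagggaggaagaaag
AKR1C3: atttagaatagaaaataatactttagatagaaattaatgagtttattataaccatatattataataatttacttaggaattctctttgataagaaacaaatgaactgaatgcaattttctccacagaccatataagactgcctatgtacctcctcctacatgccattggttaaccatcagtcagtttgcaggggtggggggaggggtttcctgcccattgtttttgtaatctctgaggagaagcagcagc

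The AKR1A1 window held 2 GC boxes, read on the minus strand as CCGCCC, at -26 to -21 and -14 to -9 from the start. It also held 3 matches to ACGTG, at -121 to -117, -9 to -5 and -8 to -4, of which the last 2 overlap each other on opposite strands and the one starting at -9 overlaps the second GC box by 1 base. The printed AKR1B1 window held GGGCGG at -188 to -183 and again at 11 to 16 after the start, past the printed bases. A second, overlapping AKR1B1 window for an upstream start held the former of these at -49 to -44. AKR1C3 also had a second window, for an upstream start, which is not printed. Its bases before that start, chr10:5048531-5048780, had 32.0% G and C. The AKR1C3 windows were identical at 78.5% of 275 aligned bases. No GC box and no ACGTG was found in the windows of AKR1C1, AKR1C2, AKR1C3, AKR1C4 and AKR1D1. The antioxidant response element core TGACNNNGC, to which NRF2 binds with small MAF proteins, was in none of the 9 windows. The AKR1B10 promoter was not analysed here. Over all 35116 promoter windows of the table, GGGCGG was in 45.0%, ACGTG in 21.4% and TGACNNNGC in 13.3%. A match is a string of letters and not a measured site, and the windows do not cover distant elements. The G and C content of the printed stretches was 60.4% for AKR1A1, 68.0% for AKR1B1, 40.8% for AKR1C1 and 35.6% for AKR1C3. The AKR1C1 and AKR1C2 windows were identical at 98.6% of 292 aligned bases, and the genes are close paralogs. As the genes are paralogs, AKR1C1 probes could also take up AKR1C2 transcript, but the identity of promoter windows does not show this. AKR1B15, the gene next to AKR1B10, had no probe either, and its part in the AKR1B10 signals is likewise not known. The probe sequences were not used here, and cross-hybridization was not tested.

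Silencing of Sp1 went with lower signals of AKR1B10, AKR1C1 and AKR1C3 and with a higher signal of AKR1B1. Without CoCl2, 5 of the 9 measured AKR1 probes were at least 2-fold lower when Sp1 was silenced, against 5.88% of all 33060 probes tested, and 1 was at least 2-fold higher, against 5.5% of all probes. Counted with 1 probe per gene, 3 of 5 members were lower and 1 was higher, with 6.18% of all genes lower and 6.2% higher. Since this ratio entered the choice of the family, nothing is read from these counts. The median log2 ratio was -1.75 over the 9 AKR1 probes and -0.02 over all probes. All 9 ratios were larger than the spread between spots, which was 0.025 to 0.084 for them. The share of all probes with ratios above their spread was not counted, so this is not read as a trait of the family.

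AKR1B10, the reductase of retinal and lipid aldehydes, had the lowest ratios of the family. Its probe A_23_P93641 gave signals of 319 in NS-si, 23.1 in Sp1-si, 691 in CoCl2-treated NS-si and 96.8 in CoCl2-treated Sp1-si cells. Both Sp1-si arrays were below both NS-si arrays, and within each siRNA the CoCl2 array was the higher one. The log2 ratio of Sp1-si to NS-si was -3.73 ± 0.078 (13.3-fold lower), the sixth lowest of the 31437 probes measured on both arrays. In CoCl2-treated cells it was -3.23 ± 0.051 (9.39-fold lower). The second probe, A_24_P129341, gave 271, 21.4, 545 and 88.2 in the same order of conditions, and thus the same order of arrays. Its ratios were -3.61 ± 0.084 without and -3.02 ± 0.059 with CoCl2 (12.2-fold and 8.13-fold lower). With a different background correction, normexp, which adds an offset and so compresses ratios of dim spots, the ratios without CoCl2 were -2.17 and -2.03, and those with CoCl2 were -2.58 and -2.40.

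Among the AKR1C genes, AKR1C3, which makes testosterone from androstenedione and also acts as a prostaglandin F synthase, had signals of 4122 in NS-si, 1177 in Sp1-si, 4107 in CoCl2-treated NS-si and 2129 in CoCl2-treated Sp1-si cells at its probe A_23_P138541. Both Sp1-si arrays were again below both NS-si arrays. The ratio of Sp1-si to NS-si was -1.75 ± 0.029 without CoCl2 (3.37-fold lower) and -1.34 ± 0.031 with it (2.54-fold lower). Without scaling of the arrays the latter was -0.95, which is short of the 2-fold limit.

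AKR1C1, which inactivates progesterone, had 3 probes that differed. A_23_P257971 gave 863, 215, 964 and 386 in NS-si, Sp1-si, CoCl2-treated NS-si and CoCl2-treated Sp1-si cells, and A_24_P220947 gave 846, 177, 867 and 334. Both were lowest in untreated Sp1-si cells and next lowest in CoCl2-treated Sp1-si cells. Their ratios of Sp1-si to NS-si were -1.95 and -2.21 without CoCl2 (3.86-fold and 4.62-fold lower) and -1.72 and -1.77 with it (3.28-fold and 3.42-fold lower). The third, A_24_P152968, gave 198, 160, 165 and 136, a much narrower range. Its ratios were -0.25 ± 0.062 without and -0.68 ± 0.074 with CoCl2. The gap between the lowest and the highest of the 3 probes was 1.95 on the log2 scale without and 1.09 with CoCl2, and its cause was not tested. As a mean over the 3 probes the AKR1C1 ratios were -1.47 and -1.39.

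AKR1B1, the aldose reductase of the polyol pathway, went the other way. Its probe A_23_P258190 gave 5096 in NS-si, 14286 in Sp1-si, 5427 in CoCl2-treated NS-si and 25656 in CoCl2-treated Sp1-si cells, so that both Sp1-si arrays were above both NS-si arrays. The ratio of Sp1-si to NS-si was 1.54 ± 0.025 without CoCl2 (2.91-fold higher) and 1.85 ± 0.023 with it (3.59-fold higher). Of the probes measured on both arrays, 1.66% had a ratio at or above that value without CoCl2 and 1.13% with it. AKR1B1 and AKR1B10 are neighbours on chromosome 7, and their ratios lay on opposite sides of 0.

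AKR1A1, the aldehyde reductase that converts glucuronate to gulonate, was less than 2-fold higher in Sp1-si cells. Probe A_24_P79750 gave 7592, 9582, 5704 and 12181 in NS-si, Sp1-si, CoCl2-treated NS-si and CoCl2-treated Sp1-si cells, and A_24_P79755 gave 1411, 1894, 1209 and 1934. Both Sp1-si arrays were above both NS-si arrays at both probes. The log2 ratios of Sp1-si to NS-si were 0.39 and 0.48 without CoCl2, and 0.70 and 0.28 with it.

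AKR1C4, a liver hydroxysteroid dehydrogenase, and AKR1D1 were at the floor of the arrays. The AKR1C4 probe gave 1.82, 1.59, 1.63 and 2.48 in NS-si, Sp1-si, CoCl2-treated NS-si and CoCl2-treated Sp1-si cells. The AKR1D1 probes gave 1.66, 1.46, 1.48 and 2.21, and 1.59, 1.40, 1.45 and 2.17. The lowest signal that was well above background on an array lay between 6.72 and 10.2, so neither gene has a ratio.

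**Figure D1:**
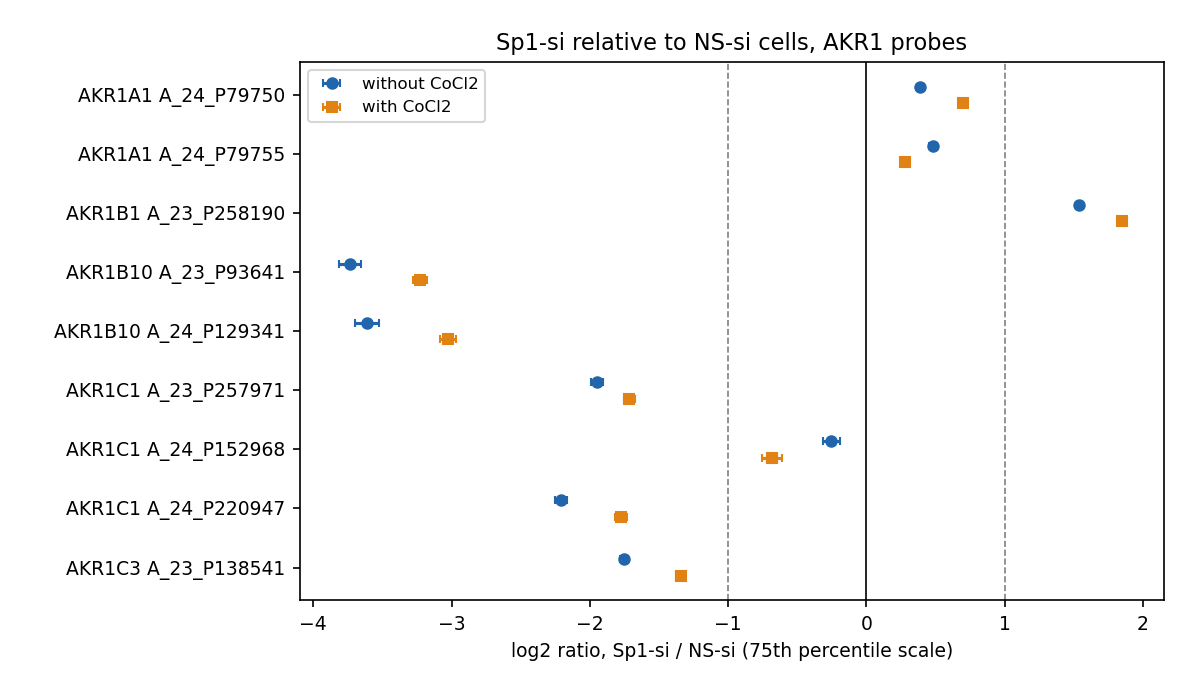
Log2 ratio of Sp1-si to NS-si for the 9 measured AKR1 probes, without CoCl2 and with 0.5 mM CoCl2, 1 array per condition. Bars through the points are the SD between spots of 10-spot probes of like signal, and dashed lines mark a 2-fold ratio. The 2 AKR1B10 probes lay lowest, at -3.73 and -3.61 without CoCl2. The AKR1B1 probe lay highest, at 1.54 without and 1.85 with CoCl2.

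In the CoCl2-treated cells the same counts were found, with 5 of 9 probes at least 2-fold lower when Sp1 was silenced, against 9.64% of 32604 probes, and 1 of 9 higher, against 6.31%. With 1 probe per gene, 3 of 5 members were lower and 1 was higher, where all genes gave 8.03% lower and 7.19% higher. The family was chosen with earlier results of these arrays known, so nothing is read from these counts either. The median log2 ratio was -1.34 for the AKR1 probes and -0.06 for all probes. The scaling matters more in this comparison than in the others. Without scaling the median of all probes rose by 0.40, 4.45% of probes were lower and 14.2% higher, and 4 AKR1 probes were lower and 2 higher. With each array scaled to its median, 7.45% of probes were lower and 8.36% higher.

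With CoCl2, AKR1B10 was at least 2-fold higher and no other measured member was, in cells of either siRNA. In NS-si cells, 2 of 9 AKR1 probes, both of AKR1B10, were at least 2-fold higher with CoCl2, against 4.53% of 32875 probes, and 0 were lower, against 4.34%. By gene this was 1 of 5 higher and 0 lower, where all genes gave 4.21% higher and 3.54% lower. In Sp1-si cells, again 2 of 9 were higher, against 3.72% of 32742 probes, and 0 lower, against 6.17%, and by gene 1 of 5 was higher and 0 lower, against 3.69% and 3.92%. Without scaling, 2.82% of probes were higher and 7.14% lower in NS-si cells and 6.37% and 3.69% in Sp1-si cells, with the same counts for AKR1. With scaling to the median, 4.93% were higher and 4.73% lower in Sp1-si cells. The median log2 ratio of the AKR1 probes was 0.26 with NS-si and 0.62 with Sp1-si, with all probes at 0.02 and -0.01.

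The AKR1B10 ratios of CoCl2-treated to untreated cells were 1.34 ± 0.045 and 1.23 ± 0.044 in NS-si cells (2.53-fold and 2.35-fold higher) and 1.84 and 1.82, each ± 0.13, in Sp1-si cells (3.59-fold and 3.53-fold higher). At most 2.41% of measured probes had ratios as high in NS-si cells and at most 0.73% in Sp1-si cells. CoCl2-treated Sp1-si cells were still below untreated NS-si cells, by log2 ratios of -1.89 and -1.79. With normexp the ratios in Sp1-si cells were 0.75 and 0.67, under the 2-fold limit, and in NS-si cells they were 1.17 and 1.04.

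The other members moved less with CoCl2. AKR1C3 had a log2 ratio of 0.22 with NS-si and 0.63 with Sp1-si, and AKR1B1 of 0.32 and 0.62. AKR1C1 probes A_23_P257971 and A_24_P220947 had 0.39 and 0.26 with NS-si and 0.62 and 0.69 with Sp1-si. These ratios were larger than the spread between spots and below the 2-fold limit. The AKR1C3 ratio in NS-si cells was -0.01 without scaling. The third AKR1C1 probe gave -0.03 ± 0.063 and -0.46 ± 0.073. AKR1A1 gave -0.19 and 0.12 at one probe and 0.00 ± 0.039 and -0.19 ± 0.031 at the other. In NS-si cells, 7 of 9 ratios were larger than the spread between spots, and in Sp1-si cells all 9 were. How many of all probes pass this limit was not counted, so nothing about the family is read from it.

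The difference of the CoCl2 ratios, Sp1-si minus NS-si cells, was positive for 7 of the 9 AKR1 probes and had a median of 0.31, where all probes had -0.01. The share of all probes with a positive difference was not counted, and the 9 probes represent 5 genes. The count of positive differences is therefore not read as a trait of the family. No AKR1 probe passed a difference of 1 in either direction, against 1.05% of 30234 probes at or over 1 and 4.87% at or under -1. AKR1B10 had 0.50 and 0.59, AKR1C3 0.41, AKR1C1 probes A_23_P257971 and A_24_P220947 0.23 and 0.43, and AKR1B1 0.30. The third AKR1C1 probe had -0.43, so the AKR1C1 probes differed in sign. The AKR1A1 probes also did, with 0.31 and -0.20. Without scaling, all 9 differences were positive and AKR1B10 probe A_24_P129341 passed 1, at 1.04. With normexp the AKR1B10 differences turned to -0.41 and -0.37, so their sign depends on the background correction. With 1 array per condition none of these differences was tested.

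**Figure D2:**
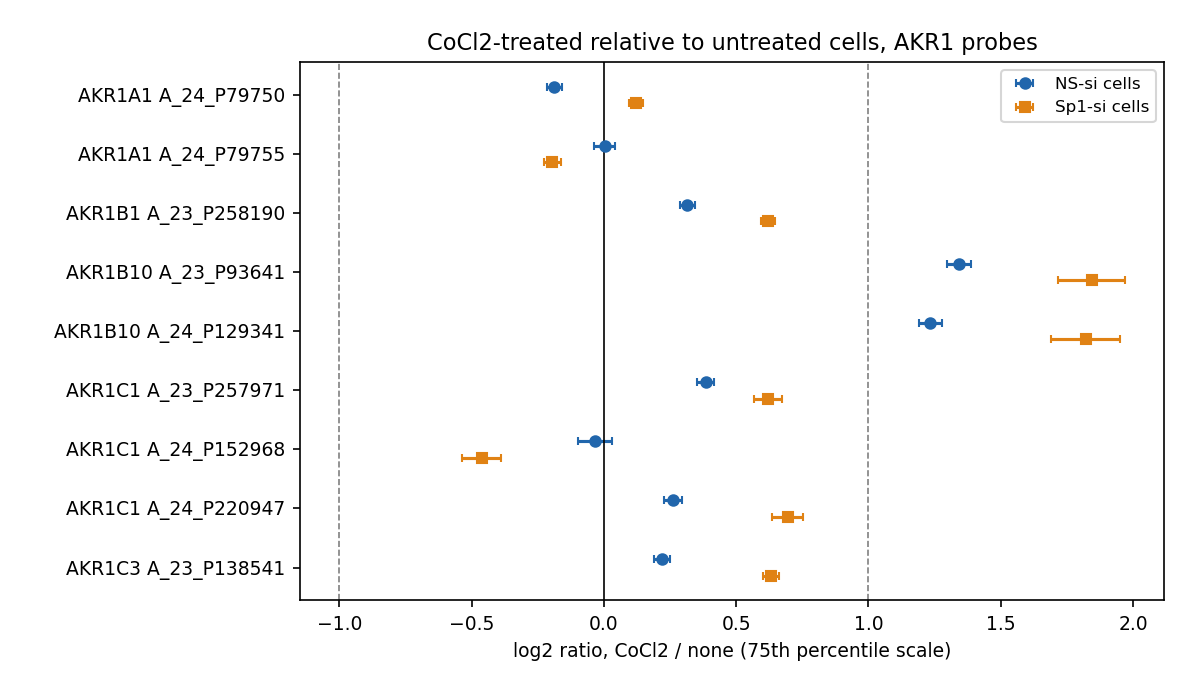
Log2 ratio of CoCl2-treated to untreated cells for the 9 measured AKR1 probes, by siRNA, 1 array per condition. Bars through the points are the SD between spots of 10-spot probes of like signal and dashed lines mark a 2-fold ratio. The 2 AKR1B10 probes passed the 2-fold line with either siRNA, at 1.34 and 1.23 with NS-si and 1.84 and 1.82 with Sp1-si.

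Related genes were described from 4 lists, with the probe of the highest mean signal standing for each gene. Of 8 other aldo-keto reductases, 5 had a probe. AKR7A2 and AKR7A3, which reduce succinic semialdehyde and aflatoxin aldehydes, had log2 ratios of Sp1-si to NS-si of 0.03 and 0.12 without and 0.22 and 0.36 with CoCl2. KCNAB2 and KCNAB3, members of the superfamily that serve as beta subunits of potassium channels, had -0.42 and -0.94 without and -0.31 and -0.59 with CoCl2. KCNAB1 was well above background in untreated NS-si cells at 1 probe and not on the other 3 arrays, with signals of 150, 2.68, 3.57 and 2.75, which makes it at least 21.5-fold lower in Sp1-si cells. Another KCNAB1 probe was detected in CoCl2-treated Sp1-si cells alone, at 23.8, and the third on no array. KCNAB1 is thus supported by single spots that disagree between probes.

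Of 26 measured genes of carbonyl and aldehyde metabolism, 5 were at least 2-fold lower in Sp1-si cells without CoCl2 and 0 were higher, with a median of -0.13. The lowest were the short-chain dehydrogenases DHRS2 at -1.56 and DHRS4 at -1.51 and the aldehyde dehydrogenases ALDH3A2 at -1.49 and ALDH3B1 at -1.37. DHRS11 at 0.73 and ALDH2, the mitochondrial enzyme that clears acetaldehyde, at 0.64 were the highest. With CoCl2, 4 were lower and 0 higher, and CoCl2 itself changed none of them 2-fold with either siRNA. Of 35 genes of steroid and retinoid metabolism with a ratio or a bound, 32 of them measured on both arrays, 4 were lower and 1 was higher without CoCl2, with a median of -0.02 over those measured. RDH10, which oxidizes retinol, had -1.32, SRD5A1, which makes dihydrotestosterone, -1.24, DHRS3, which reduces retinal, -1.17, and HSD3B7 of bile acid synthesis -1.01. The retinoic acid hydroxylases CYP26B1 and CYP26A1 had 1.01 and 0.66. With CoCl2, 3 of 34 were lower when Sp1 was silenced, against 8.03% of all genes, and 0 were higher, with a median of -0.12. CoCl2 itself went with 4 of 35 genes higher in NS-si cells, against 4.21% of all genes, and with 2 of 35 higher and 1 lower in Sp1-si cells, against 3.69% and 3.92%. Without CoCl2, 6.18% of all genes were lower and 6.2% higher, as given above.

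NRF2 target genes other than the AKR1 members held the most low ratios of the 4 lists. Since the lists were chosen with earlier results of these data known, nothing is read from their counts, and a part of NRF2 in the AKR1 values was not tested. Of 29 measured genes, 10 were at least 2-fold lower in Sp1-si cells without CoCl2 and 0 were higher, against 6.18% and 6.2% of all genes, with a median of -0.39. With CoCl2, 8 were lower and 0 higher, against 8.03% and 7.19% of all genes, with a median of -0.33. NQO1, a quinone reductase, gave signals of 2247 in NS-si, 157 in Sp1-si, 2502 in CoCl2-treated NS-si and 560 in CoCl2-treated Sp1-si cells. This is the order of arrays seen for AKR1B10, and also for AKR1C1 probes A_23_P257971 and A_24_P220947 and for other genes of this list. The log2 ratios of Sp1-si to NS-si for NQO1 were -3.79 without CoCl2 and -2.56 with it. GCLC and GCLM, the subunits of the enzyme that limits glutathione synthesis, had -2.52 and -1.61 without CoCl2 and -1.60 and -0.62 with it, and TXNRD1, a thioredoxin reductase, had -2.26 and -1.02. BLVRB, a biliverdin reductase, and HMOX1, heme oxygenase, were the highest at 0.71 and 0.68 without CoCl2. With CoCl2, 6 of the 29 were at least 2-fold higher in cells of either siRNA and 0 were lower, where 4.21% of all genes were higher with NS-si and 3.69% with Sp1-si. The medians were 0.31 with NS-si and 0.32 with Sp1-si. The log2 ratio to untreated cells was 3.73 and 2.75 for HMOX1, 2.69 and 3.61 for GCLC, and 0.38 and 1.61 for NQO1, the former of each pair with NS-si and the latter with Sp1-si.

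The pattern over the 4 arrays was compared between genes as the Euclidean distance of the log2 values after each probe was centred on its mean, among probes well above background on all 4 arrays. For AKR1B10 the second AKR1B10 probe was at 0.18, and the nearest genes outside the family included NQO1 at 0.76, GAL3ST1 at 0.95, NECTIN4 at 1.05 and COXFA4L3 at 1.21. Of the other members, AKR1C1 probes A_24_P220947 and A_23_P257971 were at 1.86 and 1.98, AKR1C3 at 2.26 and the third AKR1C1 probe at 3.56. The AKR1A1 probes were at 4.34 and 4.23, and AKR1B1 was at 5.30. Only the 5 nearest genes outside the family were listed, so how many lie nearer than AKR1C1 is not known. For AKR1C3 the 5 nearest were DNMT3B at 0.029, CENPN at 0.033, BRIP1 at 0.052, SLC52A3 at 0.12 and ASPH at 0.15. AKR1C1 probes A_23_P257971 and A_24_P220947 were at 0.31 and 0.44 and the third at 1.34. The 4 points of each comparison share the same arrays.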

How the data were processed

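RNA of 4 OVSAYO cultures was hybridized to 1-colour Agilent human whole genome arrays, 1 per condition. The deposited intensities are the processed signals that the authors obtained with Agilent Feature Extraction (version 10.5.1.1, with an array design on build hg18, per the file headers), background-subtracted and detrended, with signals at or under background replaced by a small positive number and no normalization between arrays. The authors' deposited value table equals this signal multiplied by 1 constant per array.

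Control spots and outlier spots were left out, log2 processed signals were reduced by the 75th percentile of each array, and spots of the same probe were averaged. A probe was well above background when at least 50% of its spots were. A ratio was a lower bound where only the brighter side was well above background, with the dim side at the higher of its own signal and the lowest signal well above background, and was not given where neither was. A 2-fold ratio (log2 of 1) was counted. With 1 array per condition no test was made. The spread was the median SD over the 25 10-spot probes nearest in mean log2 signal over the arrays compared. Accessions were named through the RefSeq gene table, which gave 26222 probes a symbol. No coordinates were taken from the array annotation.

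Members and lists were chosen with earlier results of these data known. Named are all AKR1 probes, SP1, the other aldo-keto reductases, from each other list up to 4 genes with the lowest and 2 with the highest ratio of Sp1-si to NS-si without CoCl2 among those well above background on all 4 arrays, and the 5 genes nearest in pattern to AKR1B10 and AKR1C3, less items that are not reported here. Further values of these genes, marker genes and chromosomal neighbours are given beside them, and the marker genes with a value were chosen after their values were seen.

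Alternatives were quantile normalization, scaling to the median, no scaling, the 75th percentile over detected probes, the authors' value table, outlier spots kept, other filters on dim probes, a 1.5-fold limit and the mean over the probes of a gene. Normexp on mean signals was planned, but no mean signal column was used, and normexp (offset 50) on median signals was run instead, chosen after seeing the data. Counting was tested on simulated data. Python 3.11.15 with pandas 2.3.3, R 4.3.3 and limma 3.58.1 were used.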

Additional observations from a re-analysis of the deposited data

Results flagged for a closer look

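AKR1A1 moved in opposite directions with CoCl2 in the cells of the 2 siRNAs at its probe A_24_P79750. The log2 ratio of CoCl2-treated to untreated cells was -0.19 with NS-si and 0.12 with Sp1-si, a difference of 0.31 with an SD between spots of 0.036. The difference was not tested, since each condition has 1 array. The other probe, A_24_P79755, gave 0.00 with NS-si and -0.19 with Sp1-si, a difference of -0.20. As a mean over both probes the ratio in Sp1-si cells was -0.04, so the opposite directions were not shared by the probes.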

How the results depend on the processing

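No paired analysis was possible because each condition has 1 array, and for the same reason no replicate could be left out. No AKR1 ratio of Sp1-si to NS-si changed sign under the alternatives run. Some CoCl2 ratios did, such as that of AKR1A1 probe A_24_P79755 in NS-si cells, close to 0, under 7 alternatives. Probes at least 2-fold lower in CoCl2-treated Sp1-si than NS-si cells went from 5 to 4 without scaling and to 6 with a 1.5-fold limit. There 4.45% and 21.8% of all probes were lower. The count of probes at least 2-fold higher in CoCl2-treated Sp1-si than NS-si cells rose from 1 to 2 without scaling and to 2 with a 1.5-fold limit, where 14.2% and 14.9% of all probes were higher, the added probe being A_24_P79750 of AKR1A1, at 1.09 without scaling. The count raised by CoCl2 in Sp1-si cells went from 2 to 0 with normexp on median signals, where 1.8% of all probes were higher, and to 6 with a 1.5-fold limit, where 10.7% were. The AKR1B10 ratio of Sp1-si to NS-si without CoCl2 ranged from -3.79 to -2.17 at A_23_P93641 and from -3.67 to -2.03 at A_24_P129341, with normexp at the upper end of both ranges. The signals of 23.1 and 21.4 of these probes in Sp1-si cells stand against a lowest signal well above background of 6.72 on that array, which limits the precision of the fold.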

Other observations

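The AKR1B and the AKR1C genes each lie in a cluster, and the neighbours of these clusters, by gene order in the RefSeq table, were looked at with AKR1B10 and AKR1C3 in view. On chromosome 7, BPGM, the red cell enzyme of bisphosphoglycerate metabolism that lies beyond AKR1B10 and AKR1B15, had log2 ratios of Sp1-si to NS-si of -1.66 without and -1.22 with CoCl2. Ratios without CoCl2 of the other neighbours were -0.19 for SLC35B4, which lies next to AKR1B1, 0.21 for LRGUK, 0.44 for EXOC4, 0.49 for CALD1 and 0.03 for AGBL3. On chromosome 10, on the sides of the AKR1C genes, KLF6 had 0.18, UCN3 -0.03 and NET1 -0.67. These are values of single arrays, and no test was made.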
